A study of Drosophila melanogaster with 9 samples.

Results

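CG14712, CG14441, ATbp and Thd1 are 4 protein-coding mRNAs of Drosophila melanogaster that stood among the 8 largest gains in ORB2 immunoprecipitates. They are 4 of the 6440 genes in the deposited tables and were selected on their normalized counts in ORB2 IP relative to control IP, so that gain is described below without a test. ORB2 is a fly member of the CPEB family of RNA-binding proteins. CPEB proteins bind U-rich elements, mostly in 3′ untranslated regions (3′UTRs), and control poly(A) tail length and translation of the bound mRNA. In the early embryo, before its own genome is broadly active, protein output depends on such control of the mRNAs supplied by the mother. The series title names ORB2 as a negative regulator of its targets at the handover from maternal to embryonic control.

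All 9 libraries came from extracts of wild-type embryos collected 0 to 3 h after laying. ORB2 IP (n = 3) used the synthetic antibody fragment (Fab) anti-orb2 E8 on anti-FLAG beads. Control IP (n = 3) used the Fab anti-EGFR-C1, and input (n = 3) was RNA of extract without an antibody. Ribosomal RNA was depleted before stranded libraries were made. The labels do not say whether replicates came from separate embryo collections, so the spread between libraries may be partly technical. Extracts were of whole embryos, so in the input levels fewer cells expressing a gene cannot be told apart from less RNA per cell.

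Each gene has a normalized count, used here to compare libraries, and a TPM, which is scaled for transcript length and used to compare genes. Totals of normalized counts ran from 2625388 to 5368634 per library. Of the 8 maternal marker genes fixed for the early embryo all were listed, with summed input levels of 3530 to 5109 TPM, and 6 of 8 early zygotic markers were listed, at 219 to 301 TPM. None of 6 follicle cell and 4 muscle markers was listed. Input replicate 1 stood apart: its Spearman correlation across genes was 0.893 and 0.911 with the other inputs, which correlated at 0.968. It was also closer to control IP (0.811 to 0.826) than input replicates 2 and 3 were (0.557 to 0.622). With ORB2 IP it correlated at 0.825 to 0.856, and input replicates 2 and 3 at 0.618 to 0.671. Across genes, ORB2 IP replicate 3 was closer to the control IP libraries (0.929 to 0.953) than ORB2 IP replicates 1 and 2 were (0.828 to 0.875).

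Little is written in the annotation about these genes. CG14712 (FBgn0037924) and CG14441 (FBgn0029895) carry only systematic names, and for ATbp (FBgn0039946) a symbol is given without a description. Thd1 (FBgn0026869), now named Tdg, has the RefSeq synonym G/T-mismatch-specific-thymine-DNA-glycosylase. Enzymes of that kind are known in mammals to remove thymine or uracil mispaired with guanine, a first step of base excision repair.

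The 4 genes lie apart in the genome. Positions are those of Ensembl release 115 (assembly BDGP6.54), and the build behind the deposited tables is not given in the sources used here. CG14712 lies on chromosome 3R (11628759 to 11633206, plus strand) and has 1 annotated transcript, of 4 exons and 4250 nt. CG14441 lies on chromosome X (6699508 to 6719389, plus strand) with 4 annotated transcripts, and ATbp lies on the same chromosome (23106003 to 23108331, plus strand) with 1 transcript of 2 exons. Thd1 lies on chromosome 4 (538332 to 557854, minus strand) and has 3 annotated transcripts.

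Transcript architecture differed widely among them. The 3′UTR, taken from the transcript with the longest one, was 267 nt in CG14712, 1001 nt in ATbp, 2410 nt in CG14441 and 7331 nt in Thd1. Over 6392 listed genes with a coding transcript the median was 309 nt. The 3′UTR of CG14712 was thus longer than in 45.3% of genes. Those of ATbp, CG14441 and Thd1 were longer than in 82.9%, 95.7% and 99.8%. Coding regions had 388 codons in ATbp, 1149 in CG14441, 1266 in CG14712 and 1738 in Thd1. That of ATbp was near the median of all genes (1164 against 1293 nt) and longer than in 44.4% of them. Those of CG14441, CG14712 and Thd1 were longer than in 90.3%, 92.4% and 96.7%. A long 3′UTR was not shared by all 4. In CG14441 the annotated 3′UTR varied from 453 to 2410 nt between transcripts and in Thd1 from 395 to 7331 nt, and values per gene do not show which form was present.

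**Figure D1:**
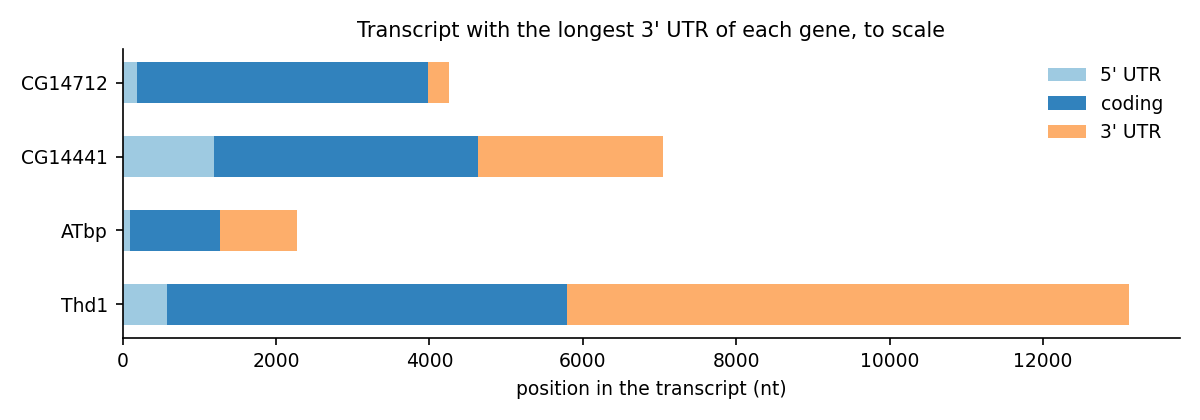
Lengths in nt of the 5′UTR, coding part (with the stop codon) and 3′UTR of 1 transcript per gene, the one with the longest 3′UTR, drawn to scale. Total lengths run from 2269 nt in ATbp to 13125 nt in Thd1, and the 3′UTR from 267 nt in CG14712 to 7331 nt in Thd1.

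In the extract itself these were scarce mRNAs. CG14712 was the most abundant of them, at 16, 9.42 and 10.1 TPM in input replicates 1 to 3. ATbp followed at 6.22, 3.97 and 3.83 TPM, and Thd1 at 7.02, 1.44 and 2.53 TPM. CG14441 was at 1.97, 1.46 and 1.29 TPM. Every gene in the tables had more than 1 TPM in every input (lowest value 1.001), so CG14441 lay just above the level at which a gene is listed at all. By mean input TPM, 20.8% of listed genes were lower than CG14712, 7.16% lower than ATbp, 4.94% lower than Thd1 and 0.45% lower than CG14441. The order of neighbours was firm for CG14712, whose lowest input value exceeded the highest of each other gene. The input values of ATbp and Thd1 overlapped, as did those of Thd1 and CG14441.

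All 4 mRNAs were highest in input replicate 1 by both units, where 37.5% of all genes had their highest normalized count and 33.1% their highest TPM. This was the input that stood apart from the other inputs and lay closest to the IP libraries. The spread was widest for Thd1. Its normalized count was 126.4 in replicate 1, 21.8 in replicate 2 and 48.66 in replicate 3.

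In ORB2 IP the same mRNAs reached the upper ranks of the transcriptome. CG14712 had 119275, 207925 and 99685 normalized counts in ORB2 IP replicates 1 to 3, against 295, 335.2 and 385.4 in control IP. Its inputs had 198.6, 98.39 and 134.2. The ORB2 IP libraries lay far above all others, and its lowest value there was 259-fold the highest in control IP. It held 3.02%, 3.87% and 2.09% of all normalized counts in the ORB2 IP libraries. Per length it stood at 9568, 12596 and 5221 TPM, the 8th, 8th and 23rd most abundant of the 6440 genes, while it ranked between 4782 and 5362 in the inputs.

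Thd1 had 25620, 79313 and 29846 normalized counts in ORB2 IP, where its control IP values were 274.2, 321.9 and 403. Replicate 2 stood well above the other ORB2 IP libraries, and the lowest of these was still 63.6-fold the highest control IP value. Levels of 1414, 3306 and 1076 TPM put it at ranks 114, 47 and 143 in ORB2 IP.

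The normalized counts of ATbp were 7645, 16798 and 13314 in ORB2 IP. Control IP gave 71.87, 65.98 and 75.06, and the inputs 34.65, 18.66 and 22.83. Its 3 groups did not overlap, with control IP between the others. ORB2 IP levels of 1363, 2262 and 1550 TPM gave ranks of 120, 77 and 119.

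CG14441 remained the least abundant of the 4 in every ORB2 IP library, at 3457, 10278 and 6062 normalized counts. Control IP gave 37.48, 35.83 and 25.21, and the inputs 30.59, 19.08 and 21.41. The control IP and input values overlapped, and the lowest ORB2 IP value was 92.2-fold the highest control IP value. Its 222, 498 and 254 TPM ranked 507, 234 and 409 in ORB2 IP, after ranks of 6350 to 6388 in the inputs.

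**Figure D2:**
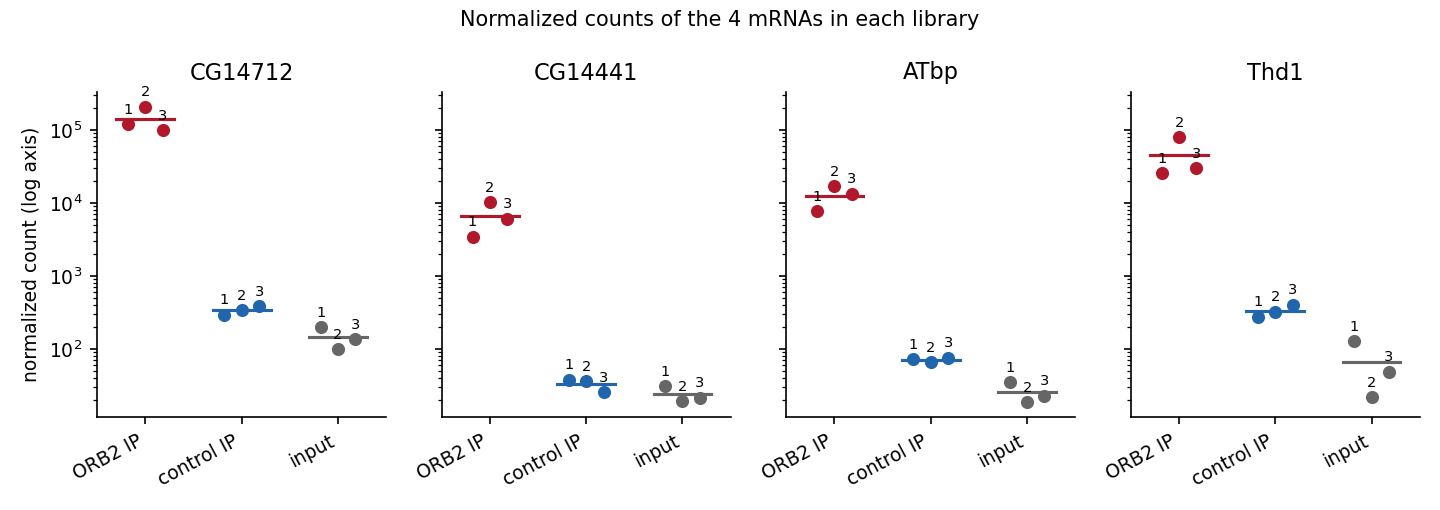
Normalized counts (log axis) of CG14712, CG14441, ATbp and Thd1 in the 3 ORB2 IP, 3 control IP and 3 input libraries. Points are libraries with their replicate numbers and lines are group means. Every ORB2 IP point lies above every point of the other groups, and ORB2 IP replicate 2 is the highest in all 4 panels.

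**Figure D3:**
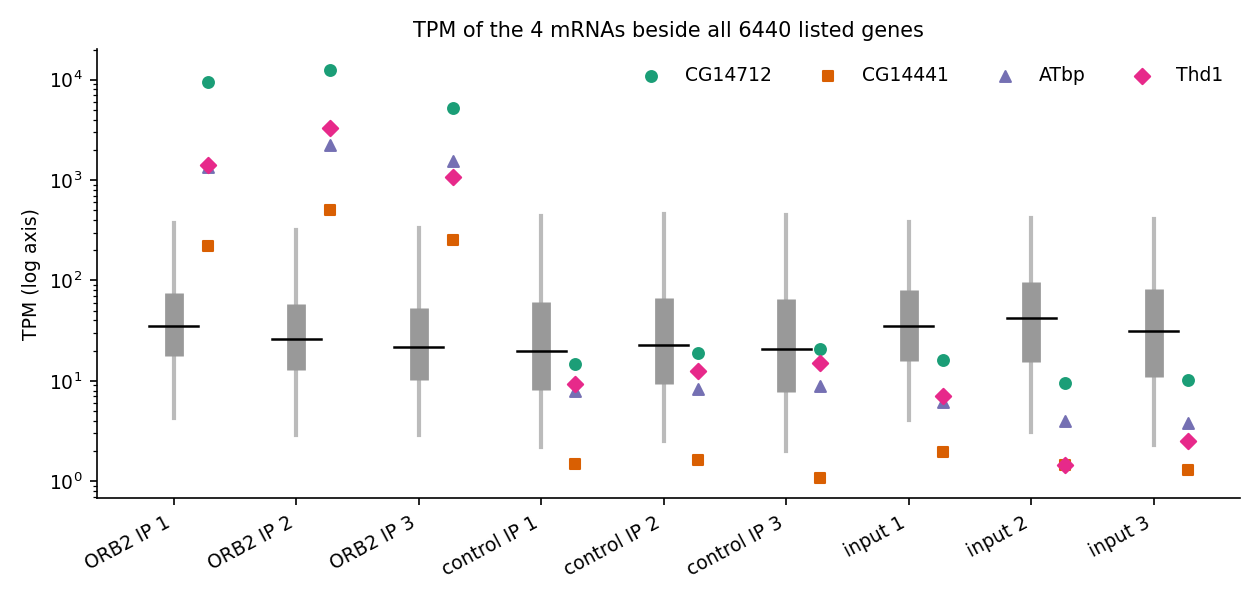
TPM (log axis) of the 4 mRNAs in each of the 9 libraries, as coloured symbols, beside the distribution of all 6440 listed genes. Thin grey lines run from the 5th to the 95th percentile, thick bars span the quartiles and black lines mark the median. The symbols lie below the median in all inputs and above the upper quartile in all ORB2 IP libraries.

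Together the 4 mRNAs made up 3.95%, 5.85% and 3.13% of normalized counts in ORB2 IP replicates 1 to 3. In control IP they made up 0.0181% to 0.0243%, and in input 0.00594% to 0.0149%. By TPM, which does not favour long transcripts, the shares in ORB2 IP were 1.26%, 1.88% and 0.813%. The share was thus highest in ORB2 IP replicate 2 by either unit. By the step between its lowest values that library was the shallowest IP, with 1 read worth about 6.56 normalized counts. It listed 108 genes at 0, while replicates 1 and 3 listed 14 and 7.

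On the log2(normalized count + 1) scale, CG14712 gained 8.65 in ORB2 IP over control IP (SE 0.29), or 401-fold. CG14441 gained 7.49 (SE 0.32), ATbp 7.38 (SE 0.25) and Thd1 6.90 (SE 0.36). These are places 3, 6, 7 and 8 of 6318 genes. NFAT (9.29) stood next above CG14712, Patronin (7.85) and orb2 itself (7.54) came between CG14712 and CG14441, and tai (6.80) followed Thd1. From the 5th to the 95th percentile, all genes lay between −1.11 and 1.12. All 4 were called higher by limma, against 20.8% of all genes tested, and for all 4 the groups did not overlap, against 27.6% of genes higher without overlap. As this contrast chose the mRNAs, neither count adds to it.

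Around these gains the libraries varied within their groups more than is usual among genes. On the log2 scale the residual SD, pooled over ORB2 IP and control IP libraries, was 0.41 for CG14712 and 0.42 for ATbp. It was 0.60 for CG14441 and 0.66 for Thd1, compared with a median of 0.26 over all genes. ORB2 IP replicate 2 gave the largest gain over the control IP mean in each case, from 7.87 for ATbp to 9.27 for CG14712. Replicate 1 gave the smallest for CG14441 (6.70), ATbp (6.73) and Thd1 (6.28), and replicate 3 the smallest for CG14712 (8.21). In 30.6% of all genes replicate 2 was the highest ORB2 IP library, and it was the highest for all 10 genes with the largest gains over control IP. Without it the gains were 8.34, 7.10, 7.13 and 6.39 for CG14712, CG14441, ATbp and Thd1. Without ORB2 IP replicate 3, the library nearest to the controls, they were 8.87, 7.48, 7.30 and 7.09.

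Over input the gains were 9.93 for CG14712 (SE 0.35), 9.55 for Thd1 (SE 0.58), 8.87 for ATbp (SE 0.33) and 7.95 for CG14441 (SE 0.37). Their order was not separated throughout, since the within-library ratios of Thd1 to CG14712 and to ATbp overlapped between ORB2 IP and input. All 4 were called, against 26.0% of genes called higher, and none overlapped with input, against 30.0% of genes. This comparison shares the ORB2 IP libraries with the one that chose the mRNAs and is a description only. The value of Thd1 depended on the inputs, being 10.19 without input replicate 1 and 8.95 without input replicate 2. CG14712 stood at 10.19 and 9.68 in the same fits, and ATbp at 9.11 and 8.68. Scaled to equal library totals, which moved the median of all genes to −0.81, the gains of CG14712, CG14441, ATbp and Thd1 were 9.15, 7.19, 8.10 and 8.78, and in the TPM table CG14441 and Thd1 stood at 6.89 and 8.71.

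**Figure D4:**
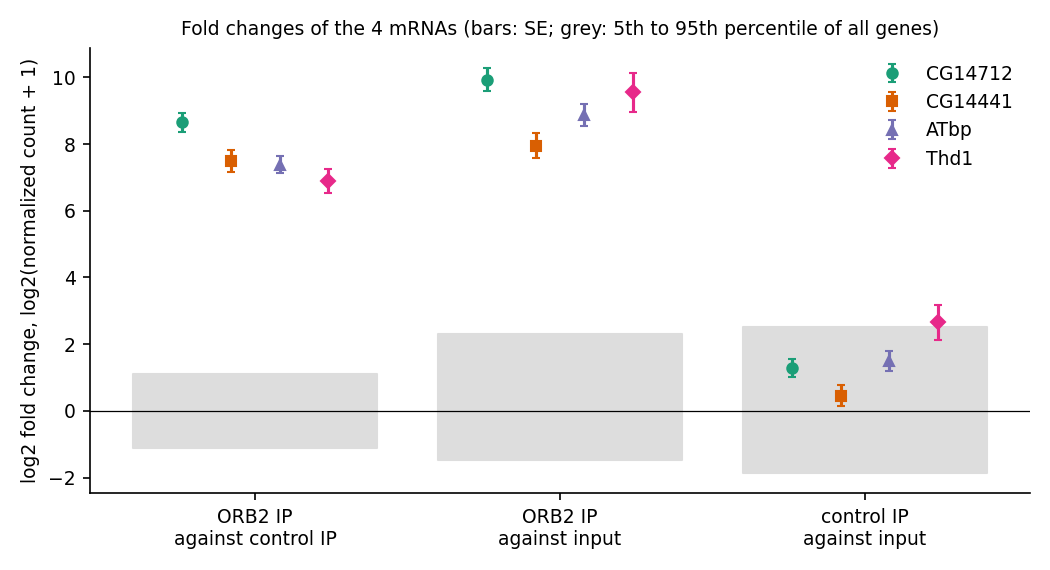
Log2 fold changes, on the log2(normalized count + 1) scale, of the 4 mRNAs in the 3 comparisons, each fitted on 6 libraries. Bars are SE and grey areas span the 5th to 95th percentile of all genes. Thd1 is at 6.90 over control IP, at 9.55 over input, with the widest error there, and at 2.65 in control IP over input.

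The comparison of control IP with input asked how much of each mRNA came down without the ORB2 Fab. It did not choose the mRNAs, although its control IP libraries entered the choice, which favoured low control values. Of the 4, limma called 3 higher in control IP, against 33.5% of all genes called higher, and the other one also had a positive value. The groups did not overlap for the same 3, against 36.1% of genes higher without overlap. Thd1 was 2.65 higher (SE 0.52, limma Benjamini-Hochberg adjusted p 0.00171 over 6355 genes), ATbp 1.49 (SE 0.30, adjusted p 0.0019) and CG14712 1.28 (SE 0.27, adjusted p 0.00273). CG14441 was at 0.46 (SE 0.31, adjusted p 0.214), with overlapping groups.

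The call of CG14712 was lost in the TPM table, where it was at 0.59 (limma Benjamini-Hochberg adjusted p 0.102) while the median of all genes was −0.59. Relative to that median it stood at 1.18, compared with 1.27 by normalized counts. Over the other alternatives its adjusted p ran from 3.26e-05 to 0.0234 (limma, Benjamini-Hochberg). ATbp kept its call there at 0.75, or 1.34 relative to all genes, and CG14441 was at −0.10, or 0.49 relative to all genes. Thd1 stayed called in all 17 alternatives (limma Benjamini-Hochberg adjusted p 1.22e-06 to 0.0101), but its size moved with single inputs, to 3.29 without replicate 1 and 2.05 without replicate 2. In the TPM table it was 1.67, or 2.26 relative to all genes. These control IP values rest on approximately 218 to 463 reads per library for Thd1 and 29 to 41 for CG14441, while the read depth of the inputs is not known.

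Ratios between mRNAs within one library do not depend on how libraries are scaled. In TPM, CG14712 exceeded Thd1 2.28-, 6.56- and 4.01-fold in input replicates 1 to 3, but only 1.56-, 1.51- and 1.39-fold in control IP. ATbp relative to Thd1 was 0.886, 2.77 and 1.52 in input and 0.847, 0.662 and 0.602 in control IP. CG14441 relative to Thd1 was 0.281, 1.02 and 0.511 in input and 0.159, 0.129 and 0.0727 in control IP. Thd1 thus gained on each of the others in control IP, with groups that did not overlap. All 6 possible pairs of the 4 lacked overlap in this comparison, so that trait was not particular to Thd1. In log2 units the differences for CG14712, ATbp and CG14441 relative to Thd1 were −1.40, −1.15 and −2.20, with pooled SD of 0.54, 0.61 and 0.78. For the 6 possible pairs the exact two-sided permutation test gave p = 0.1, and 0.1 after Benjamini-Hochberg adjustment, the smallest value that 3 against 3 libraries allow, so no difference could pass. In ORB2 IP the ratio of CG14712 to Thd1 was 6.77, 3.81 and 4.85, which overlaps its range in input.

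Higher values in control IP were also found across the chromosome that carries Thd1. Of the 42 other tested genes of chromosome 4, limma called 39 higher and 1 lower in control IP than in input (33.5% and 32.3% of all genes), and their median was 1.99 (0.01 over all genes). Thd1 ranked 12 of 43 by that change. The count of higher genes was 27 in the TPM table, where 1173 of 6355 genes were higher. It was 31 with equal totals, where 1403 of 6355 were, and 33 to 39 when 1 library was left out. The median of the 42 genes was 2.58 without input replicate 1 and 1.46 without input replicate 2. In ORB2 IP over input 35 of the 42 were also higher and 1 lower (26.0% and 25.1% of all genes), with a median of 2.05 beside the 9.55 of Thd1. With equal totals 23 were higher and 4 lower there, where 604 and 3195 of 6344 genes were. Over control IP the ORB2 IP values of the same 42 genes ran from −1.15 to 1.10 with a median of −0.23, and 4 were called higher and 9 lower, against 20.8% and 21.6% of all genes. The 6.90 of Thd1 lay outside that range, a gap that follows from choosing Thd1 by this contrast. Over the alternatives 0 to 8 were called higher and 5 to 21 lower. The extremes came from 9 libraries in one fit (0 and 5), equal upper quartiles (8 and 6) and equal totals (1 and 21). Over all genes these settings called 889 and 886 of 6341, 1721 and 1003 of 6318, and 383 and 2178 of 6318. The replicate block gave 7 and 11 of the 42, and without ORB2 IP replicate 2 or control IP replicate 3 there were 4 and 5.

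The reads counted for Thd1 could also include those of overlapping genes. Its exons cover 13125 nt, of which 2325 nt (17.7%) also belong to zfh2 on the opposite strand and 412 nt to lncRNA:CR43958 on the same strand. Libraries were stranded per the labels, but whether counting used the strand is not given in the sources used here. Annotated INE-1 transposable elements, which recur across the genome, overlap its exons as well, by 342, 333, 287, 166, 130 and 75 nt. CG14712, CG14441 and ATbp overlap no other annotated gene.

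Genes next to the 4 did not share their gain over control IP. The 4 were chosen for that gain, so this is a description only. The nearest listed genes on each side, up to 2 per side, numbered 14, and ORB2 IP over control IP ran from −1.01 to 0.95 among them. Limma called 3 of them higher and 3 lower, close to the 20.8% and 21.6% of all genes. Csk, a homologue of the kinases that inhibit Src kinases, ends 72 nt from CG14712 and was at 0.06 (SE 0.18). CG14440, 941 nt from CG14441, was at 0.95 (SE 0.35), and su(f), which encodes a subunit of the cleavage machinery for mRNA 3′ ends, was at −0.12 (SE 0.35) next to ATbp. Pur-alpha, a single-stranded nucleic acid binding protein encoded 162 nt from Thd1, was at −1.01 (SE 0.17). The number called higher was 1 without ORB2 IP replicate 1 or 2 or control IP replicate 3. It was also 1 with 9 libraries in one fit or without the mean-variance trend. With equal totals it was 0, where 383 of 6318 genes were called higher. Compared with input, 5 of the 14 were higher in control IP and 1 was lower, against 33.5% and 32.3% of all genes. By TPM, 3 were higher and 6 lower, where 1173 and 3158 of 6355 genes were. With equal totals 4 were higher and 6 lower, where 1403 and 2859 of 6355 genes were. The higher ones included Pur-alpha (3.14, SE 0.38), Asator (2.05, SE 0.33) and CG33941 (0.90, SE 0.30) on chromosome 4 and CG17162 (2.60, SE 0.38) near ATbp. The lower one was ND-49, a mitochondrial complex I subunit gene next to Pur-alpha, with 327.9 ± 17.4 normalized counts in control IP (SD, n = 3) and 663.3 ± 138 in input (SD, n = 3).

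**Figure D5:**
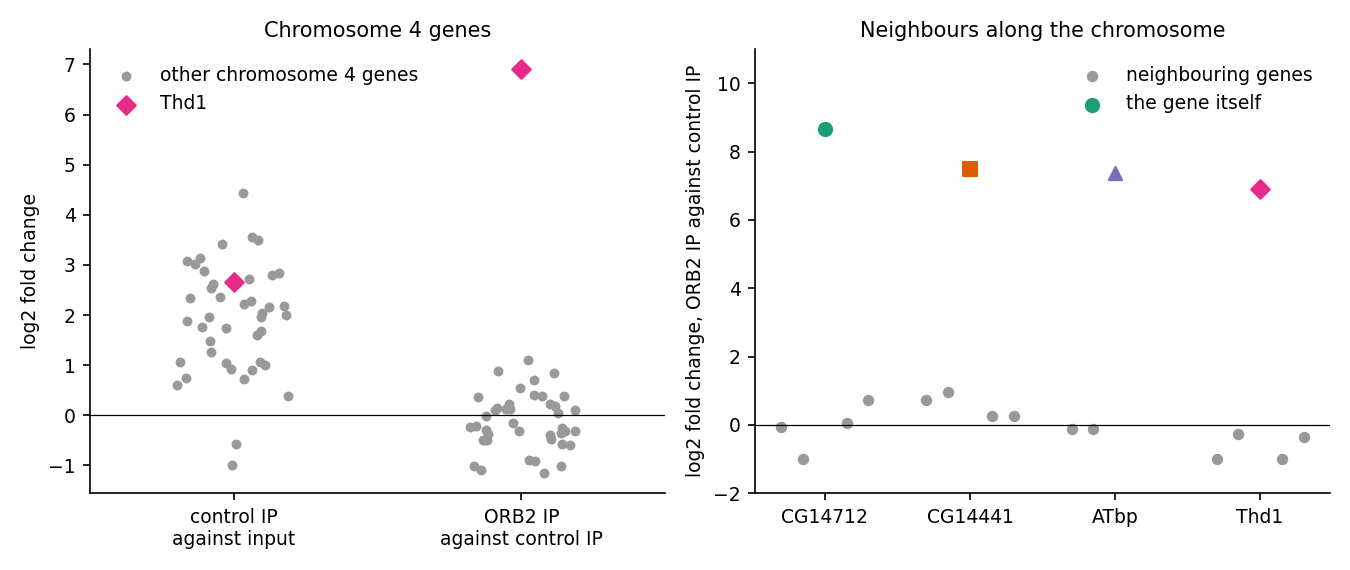
Left, log2 fold changes of Thd1 (diamond) and 42 other chromosome 4 genes (grey, spread sideways at random) in control IP against input and in ORB2 IP against control IP. Right, log2 fold change in ORB2 IP against control IP of each of the 4 genes and of its nearest listed neighbours in chromosomal order. Thd1 lies among the grey points at 2.65 on the left and apart from them at 6.90, and no neighbour exceeds 0.95. ORB2 IP against control IP is the contrast that chose the 4 genes.

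Other mRNAs of base excision repair did not follow Thd1 in ORB2 IP over control IP, the contrast that chose Thd1. Of 10 listed besides it, limma called 3 higher and 4 lower over control IP (20.8% and 21.6% of all genes), and their values ran from −1.44 to 1.02 with a median of −0.22. The higher ones were DNAlig1, a DNA ligase (1.02, SE 0.25), Rrp1, the apurinic endonuclease (0.93, SE 0.25), and Fen1, the flap endonuclease (0.76, SE 0.28). Among the lower ones were dUTPase, which keeps uracil out of DNA (−1.44, SE 0.21), the scaffold XRCC1 (−0.89, SE 0.17) and Parp1, the poly(ADP-ribose) polymerase (−0.62, SE 0.17). Without control IP replicate 3, 1 of the 10 was called higher (717 of 6319 genes), and with equal totals 0 (383 of 6318 genes). In control IP over input 4 of the 10 were higher and 2 lower (33.5% and 32.3% of all genes), with Parp1 at 3.26 (SE 0.58) and CG9272 at 2.10 (SE 0.30), near the 2.65 of Thd1.

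mRNAs of 9 proteins that act on AT-rich DNA or on heterochromatin, chromosome 4 included, were listed beside ATbp because of its symbol, since its own role is not annotated here. Over control IP, limma called 1 of the 9 higher and 5 lower (20.8% and 21.6% of all genes), with a range from −1.38 to 0.66 and a median of −0.83. The higher one was wde, a cofactor of the histone methyltransferase Egg (0.66, SE 0.21). Its call was lost without ORB2 IP replicate 2, control IP replicate 2 or control IP replicate 3. It was also lost with equal totals and with 9 libraries in one fit. Among the lower ones were HmgZ, a high mobility group protein (−1.38, SE 0.27), prod, a satellite DNA-binding protein (−1.28, SE 0.17), and D1, an AT-hook protein (−0.83, SE 0.16). In control IP over input 5 of the 9 were called higher, against 33.5% of all genes, while egg (−0.56, SE 0.23) had the lowest value and was not called.

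Profiles over all 9 libraries were compared after centring each gene on its own mean, by the root mean square difference of log2(normalized count + 1). Most like CG14712 were NFAT (0.41), ATbp (0.62) and msn (0.78), where the median over 6341 genes was 4.46. CG14441 was nearest to Patronin (0.37), tai (0.43) and ATbp (0.51). Camta was the nearest gene to ATbp (0.50) and to Thd1 (0.63). ATbp was followed by CG14441 (0.51) and CG14712 (0.62), and Thd1 by ATbp (0.67) and CG14712 (0.85). Between the 4 themselves the measure ran from 0.51 for CG14441 and ATbp to 1.07 for CG14441 and Thd1. As all of these genes are high in ORB2 IP, the measure describes a pattern that the choice had already fixed.

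Among the 10 largest gains, control IP over input separated the genes further. Of the 6 that are not among the 4, limma called NFAT higher (0.61, SE 0.20) and nocte lower (−0.74, SE 0.22), while msn (−0.28), Patronin (−0.22), orb2 (−0.42) and tai (0.21) were not called. CG14712, ATbp and Thd1, at 1.28 to 2.65, had the largest values of the 10.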

How the data were processed

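RNA was sequenced from 3 ORB2 IP, 3 control IP and 3 input libraries, grouped by sample title. The authors deposited a TPM table and a table of normalized counts, a signal whose scale the labels do not define. The submitters' processing notes name DESeq2 1.42.1, Salmon 1.9.1 and Trim Galore 0.6.5 without roles. Whole reads were not recovered, so count models were not used. In the IP libraries 74.6% to 88.5% of the lowest values lay within 0.15 of a multiple of a common step, taken as 1 read (evenly spread values give 30%). That step was set from these same values and rests on only 17 values in ORB2 IP replicate 3. No step was found in the inputs (25% to 37%).

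The 3 comparisons were each fitted by limma 3.58.1 (with a mean-variance trend, in R 4.3.3) to their 6 libraries, on log2(normalized count + 1) for genes with a mean of at least 10. Tests were two-sided and genes were called at a Benjamini-Hochberg adjusted p below 0.05 over all genes. Fits were tested on simulated data. Python 3.11.15, pandas 2.3.3 and scipy 1.17.1 gave the other values, and 6394 of 6440 identifiers matched Ensembl release 115. Named genes were the 4 mRNAs, their 3 most similar profiles, up to 2 neighbours per side, the genes next in order of gain and the listed gene groups. The 10 largest gains were named in full after their values were seen. The mRNAs, lists and rules were chosen with earlier results of these data known. Same-numbered ORB2 IP and control IP libraries deviated together from their group means (correlations across genes of 0.1003, 0.2199 and 0.2684), so the replicate number was tried as a block.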

Additional observations from a re-analysis of the deposited data

How the results depend on the processing

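Across 17 alternatives per comparison (pseudocounts, filters, scalings, the TPM table, 9 libraries in one fit, no trend, replicate block, each library left out), the 4 mRNAs stayed called in ORB2 IP over control IP, from 6.39 (Thd1) to 8.90 (CG14712), and over input, from 6.89 (CG14441) to 10.19 (CG14712 and Thd1). ORB2 IP over control IP chose the mRNAs, and ORB2 IP over input shares its ORB2 IP libraries. The calls kept in both are therefore a description and no support for the gains. In control IP over input CG14712 lost its call with TPM (0.59 at pseudocount 1 and 0.63 at 0.1) and CG14441, never called, changed sign (−0.10 and −0.16), with all genes shifted by −0.59 and −0.64. Thd1 kept its call in all 17 (adjusted p up to 0.0101) and ATbp in 16 (up to 0.0381), as its mean lay below the filter of 50 in the remaining one. The cause was not tested.

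Counts over all genes moved more. For ORB2 IP over control IP (1316 higher, 1366 lower), equal totals gave 383 and 2178, TPM 708 and 692 lower, and 9 libraries in one fit 886 lower. Leaving out a library gave 717 to 1493 higher and 967 to 1573 lower, with 717 without control IP replicate 3 and 864 without ORB2 IP replicate 2. For ORB2 IP over input (1648 and 1593), equal totals gave 604 and 3195, and TPM 970 and 928 higher. Leaving out a library gave 1120 to 1862 higher and 891 to 1816 lower, with 1035 lower without input replicate 2 and 891 without input replicate 3. For control IP over input (2126 and 2050), equal totals gave 1403 higher, and TPM 1173 and 1168 higher with 3158 and 3149 lower. Equal totals shifted the median of all genes by −0.35, −0.81 and −0.41 in the 3 comparisons. Equal totals and TPM also moved the share of calls that were higher, from 49.1% to 15% and 65.7% over control IP, from 50.8% to 15.9% and 31.6% for ORB2 IP over input, and from 50.9% to 32.9% and 27.1% for control IP over input. Equal upper quartiles gave 63.2% over control IP.

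With the replicate block 1523 genes were above control IP in ORB2 IP and 1501 below, and it changed no call of the 4 mRNAs. Same-numbered ORB2 IP and input libraries did not all deviate together (correlations of −0.1869, 0.0968 and 0.1799). Those of control IP and input did (0.0396, 0.1854 and 0.177), while their differently numbered libraries gave −0.1937 to −0.0064. The labels do not state whether the numbers pair the libraries. The block gave 1554 higher and 1421 lower for ORB2 IP over input, and 2144 and 2092 for control IP over input. Searches of 3′UTRs for motifs, planned with other window lengths, were not run. Low depth limits small differences most for CG14441, and in ORB2 IP replicate 2.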
